A study of Homo sapiens with 6 samples.

Results

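The 10 alpha and beta tubulin genes described here were the rows of the deposited gene table with the symbols TUBA1A, TUBA1B, TUBA1C, TUBA4A, TUBB, TUBB2A, TUBB2B, TUBB3, TUBB4B and TUBB6, of 58735 genes in all. Of these, 4 encode alpha tubulin and 6 encode beta tubulin. The cells were HCT116, a human colorectal cancer cell line with an epithelial origin, of wild-type genotype as labelled. The CTR group held 3 control libraries, and the miR-8485 group held 3 libraries of the same line transfected with mimics of the microRNA miR-8485. The study's methods give 50 nM of mimic and collection 48 h after transfection, and describe the 3 replicates of each group as biologically independent. The control oligonucleotide was not described in the sources used here. Values are FPKM, fragments scaled for gene length and for the number of fragments counted in the library, so a level is relative to all other RNA in the same library.

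Alpha and beta tubulin proteins pair into heterodimers, and these dimers join end to end into the protofilaments that form the wall of a microtubule. Microtubules form the mitotic spindle, the tracks of kinesin and dynein motors and the core of cilia. Vertebrates carry several genes, called isotypes, for each class of tubulin, and the balance of isotypes differs between tissues. Tubulin mRNA is also subject to autoregulation, in which an excess of free tubulin dimers leads to decay of tubulin mRNA that is being translated.

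The libraries held 17473874 to 18480047 fragments on listed genes. The epithelial markers EPCAM, KRT8, KRT18, KRT19, CDX2 and CDH1 had mean levels of 16.0 to 1147 FPKM in CTR, whereas VIL1, a microvillus protein of intestinal epithelium, was near 0 at 0.0320 FPKM. KRT8 fell from 848 to 552 FPKM, KRT18 from 572 to 292 FPKM, and KRT19 from 1147 to 768 FPKM (65.1%, 51.0% and 67.0% of CTR). CDX2 rose from 16.0 to 28.2 FPKM, and the part of these markers in the tubulin results was not tested. Of the markers of other cells, VIM, PECAM1 and PTPRC were at most 0.183 FPKM in every library, and COL1A1 was 4.25 FPKM in CTR and 6.31 FPKM in miR-8485. Among 12349 genes with a mean of at least 1 FPKM, limma with Benjamini-Hochberg adjustment called 29.1% higher and 30.5% lower in miR-8485 at an adjusted p under 0.05, and the median log2 fold change of these genes was -0.0041. RNA was taken from bulk cultures, so fewer cells of a state and less RNA per cell cannot be told apart.

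The sequence of the mimic was read from the study's methods, and it is shown because its seed (bases 2 to 8, in capitals) sets the short site looked for in the tubulin mRNAs.
miR-8485 mimic: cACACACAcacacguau
The site complementary to the seed is TGTGTGT. None of the canonical GENCODE v44 transcripts of the 10 members held this site, in the 3′ UTR or elsewhere. Among all 19550 canonical 3′ UTRs, 4971 (25.4%) held it. The 3′ UTRs of the members ran from 151 bases in TUBB4B to 1373 bases in TUBA1C with a median of 383.5 bases, against a median of 1064 bases over all genes. Of the 11199 canonical 3′ UTRs no longer than that of TUBA1C, 9.7% held the site. The absence of these letters says nothing of imperfect or other sites.

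The first coding bases are shown because autoregulation reads the start of the nascent tubulin chain. Codons 2 to 4 are in capitals.
TUBA1A, TUBA1B and TUBA1C: atgCGTGAGTGC
TUBA4A: atgCGTGAATGC
TUBB and TUBB4B: atgAGGGAAATC
TUBB3 and TUBB6: atgAGGGAGATC
TUBB2A: atgCGCGAGATC
TUBB2B: atgCGTGAGATC
The first of these runs began the canonical coding sequence of no gene other than these 3 alpha genes. TUBB and TUBB4B shared their start with TUBB8B, and TUBB3 and TUBB6 shared theirs with TUBB8. In the 4 alpha genes an intron separates the start codon from codon 2, as in TUBA1B, where the start codon lies at chr12:49131298-49131300 and codon 2 begins the run chr12:49129714-49129722 on the minus strand. In the 6 beta genes these codons are adjacent in the genome.

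Tubulin mRNA was lower in the miR-8485 group for 8 of the 9 members that could be tested, TUBA1A, TUBA1B, TUBA1C, TUBA4A, TUBB, TUBB2A, TUBB4B and TUBB6, and no member was called higher. The background was 30.5% of tested genes called lower. The median log2 fold change of the 9 tested members was -0.51, against -0.0041 over all tested genes. TUBB3 was tested and not called, and TUBB2B, at a mean under 1 FPKM, was below the expression filter. Among the tested members, the 8 called were also those with 3 miR-8485 libraries all below the 3 CTR libraries, which held for 34.0% of tested genes. All 8 had a mean of at least 5 FPKM, and 35.1% of the genes above that level were called lower. The 8 calls were made in the same direction under each of the 16 alternative fits.

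**Figure D1:**
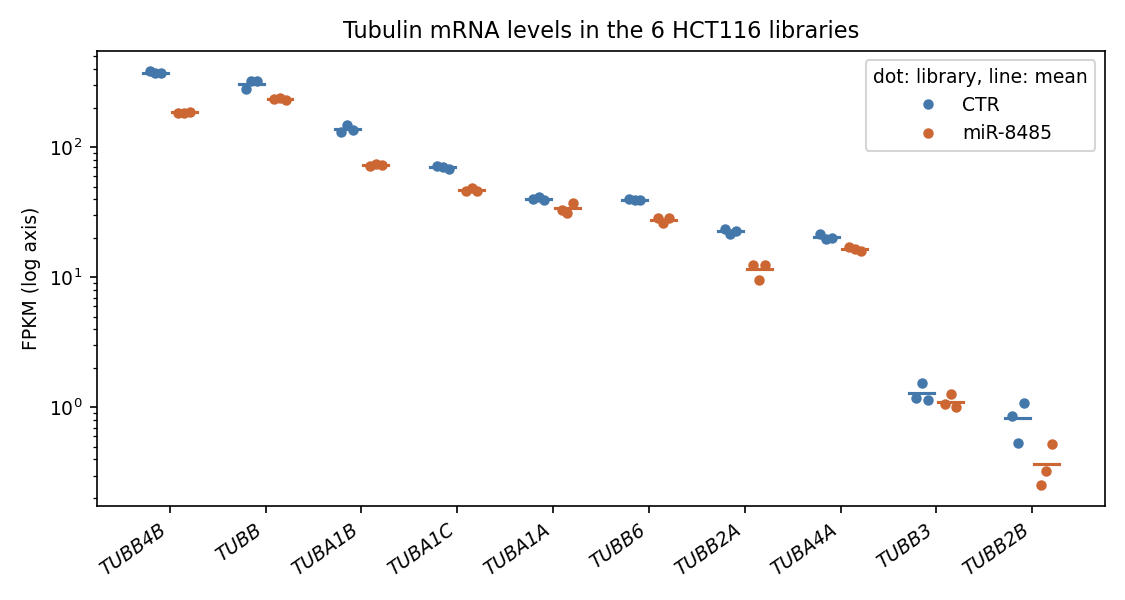
FPKM on a log axis for each of the 10 tubulin genes, ordered by CTR level, with a dot for each library and a line for the group mean. The 3 miR-8485 dots lie below the 3 CTR dots for every gene except TUBB3, and for TUBB2B the gap is only that between 0.529 and 0.526 FPKM.

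TUBB4B, the gene of the broadly expressed beta tubulin isotype IVb, lies at chr9:137241213-137243707 on the plus strand of hg38. It had 383, 371 and 369.7 FPKM in the CTR libraries and 185.3, 185.0 and 186 FPKM in the miR-8485 libraries. The groups were far apart and the miR-8485 libraries were nearly alike. The mean went from 375 ± 7.48 to 185 ± 0.566 FPKM (SD, n = 3 each), which is 49.5% of the CTR level. The log2 fold change was -1.01 (SE 0.04, limma adjusted p = 2.4e-06), and 4.67% of tested genes had a lower fold change. With 7024 to 14594 fragments per library, TUBB4B was among the most deeply counted members, and it was the highest member by FPKM in CTR.

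TUBB, the gene of beta tubulin isotype I and the main beta isotype of many cultured cells, lies at chr6:30720201-30725426 on the plus strand. Its CTR libraries had 279, 323 and 326 FPKM and its miR-8485 libraries had 236, 240.4 and 232 FPKM. The first CTR library was the lowest of its group and still above every miR-8485 library. It also stood apart over all genes, with a chi-square per gene of 10.5 and 8.46 against the other CTR libraries, where the other pairs within a group had 2.75 to 3.87. The mean went from 309 ± 26.1 to 236 ± 4.37 FPKM, or 76.4% of CTR, with a log2 fold change of -0.38 (SE 0.06, limma adjusted p = 0.0016). The log2 ratio of TUBB to TUBB4B was -0.28 ± 0.15 in CTR and 0.35 ± 0.03 in miR-8485, a difference of 0.63 with no overlap of the libraries. The exact permutation p for this ratio was 0.1, the smallest that 3 against 3 libraries allow, and 0.133 after Benjamini-Hochberg adjustment over the 12 ratios computed. The more abundant of these beta genes was therefore TUBB4B in each CTR library and TUBB in each miR-8485 library.

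TUBB2A and TUBB2B, which encode the near-identical isotypes IIa and IIb, lie close to each other on chromosome 6, at chr6:3153669-3157526 and chr6:3224261-3231730, both on the minus strand. TUBB2A had 23.5, 21.6 and 22.9 FPKM in CTR and 12.5, 9.64 and 12.4 FPKM in miR-8485. Every miR-8485 library was well below every CTR library. The mean was 50.8% of CTR and the log2 fold change -0.98 (SE 0.10, limma adjusted p = 1.5e-04), and the TUBB2A to TUBB4B ratio overlapped between groups, with a log2 difference of 0.028 (exact permutation p = 1).
TUBB2B was the lowest member, with 0.860, 0.529 and 1.08 FPKM in CTR and 0.254, 0.328 and 0.526 FPKM in miR-8485, from 10 to 43 fragments per library. The fit of all 31768 genes above 0, which called 11.3% of them lower, gave TUBB2B a log2 fold change of -0.97 (SE 0.36, limma adjusted p = 0.117). Only the alternative on recovered fragments called it, at an adjusted p of 0.0434, and the range over 14 alternatives was 0.0434 to 0.310. TUBB2A and TUBB2B share 98.1% of their coding bases, and 55.6% of the 100-base words of the TUBB2A transcript occur in another gene, so the division of fragments between them is uncertain.

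TUBB6, the gene of isotype V, lies at chr18:12307669-12344320 on the plus strand, and no 100-base word of its transcript occurs in another gene. It had 40.3, 39.2 and 39.1 FPKM in CTR and 28.8, 26.1 and 28.6 FPKM in miR-8485. The groups did not overlap, and the mean was 70.4% of CTR, with a log2 fold change of -0.51 (SE 0.05, limma adjusted p = 1.2e-04). The gene overlaps AFG3L2 on the opposite strand over 15377 bases, and AFG3L2 rose from 7.67 to 9.99 FPKM.
TUBB3, the isotype III gene best known from neurons, lies at chr16:89921392-89938761 on the plus strand. It had 1.19, 1.55 and 1.13 FPKM in CTR and 1.06, 1.26 and 1.01 FPKM in miR-8485. The libraries of the groups overlapped, with a log2 fold change of -0.20 (SE 0.19, limma adjusted p = 0.389), and no alternative called it (adjusted p 0.196 to 0.790). The 84 to 124 fragments per library limit this comparison. A same-strand readthrough gene, AC092143.1, covers 14701 bases of the TUBB3 region and was listed at 0 in every library, and 92.5% of the 100-base words of TUBB3 also occur in that gene. Whether fragments of TUBB3 were lost to this overlap was not tested.

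TUBA1A, TUBA1B and TUBA1C lie together on chromosome 12. TUBA1B, the gene of a ubiquitous alpha isotype, lies at chr12:49127782-49131397 on the minus strand and was the highest alpha member. It had 131, 148 and 135 FPKM in CTR and 72.3, 73.8 and 73.8 FPKM in miR-8485, so that the groups were far apart. The mean went from 138 ± 8.92 to 73.3 ± 0.844 FPKM, or 53.1% of CTR, with a log2 fold change of -0.91 (SE 0.05, limma adjusted p = 1.1e-05). An antisense gene spanning the whole of TUBA1B, AC011603.2, was at 0.0564 FPKM in CTR and 0.109 FPKM in miR-8485.

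TUBA1C lies at chr12:49188736-49274603 on the plus strand and had 72.1, 70.4 and 68.4 FPKM in CTR and 46.2, 48.6 and 46.2 FPKM in miR-8485. Its mean was 66.9% of CTR, with a log2 fold change of -0.58 (SE 0.04, limma adjusted p = 3.1e-05). TUBA1A, the main alpha isotype of developing neurons, lies at chr12:49184796-49189324 on the minus strand and overlaps TUBA1C over 589 bases. It had 40.4, 41.2 and 39.6 FPKM in CTR and 33.1, 31.5 and 37.5 FPKM in miR-8485, where the third library was the nearest to CTR. TUBA1A was 84.2% of CTR, the smallest change among the called members, with a log2 fold change of -0.25 (SE 0.07, limma adjusted p = 0.014). TUBA1A, TUBA1B and TUBA1C share 95.9% to 97.2% of their coding bases. Of the 100-base words of their transcripts, 21.5% in TUBA1A, 71.1% in TUBA1B and 31.6% in TUBA1C occur in another gene, on either strand. For TUBA1B the gene sharing most words was the antisense TUBA1B-AS1. The division of fragments from the shared parts is uncertain.

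TUBA4A, the remaining alpha member, lies at chr2:219249711-219278170 on the minus strand. It had 21.4, 19.8 and 20.1 FPKM in CTR and 17.3, 16.5 and 15.9 FPKM in miR-8485, with no overlap. The mean was 80.9% of CTR, with a log2 fold change of -0.30 (SE 0.05, limma adjusted p = 0.0018). STK16, a kinase gene that overlaps TUBA4A over 627 bases on the opposite strand, moved the other way, from 5.66 to 7.85 FPKM. The strand setting of the counting was not given in the sources used here, so fragments of such opposite-strand pairs may not have been separated.

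**Figure D2:**
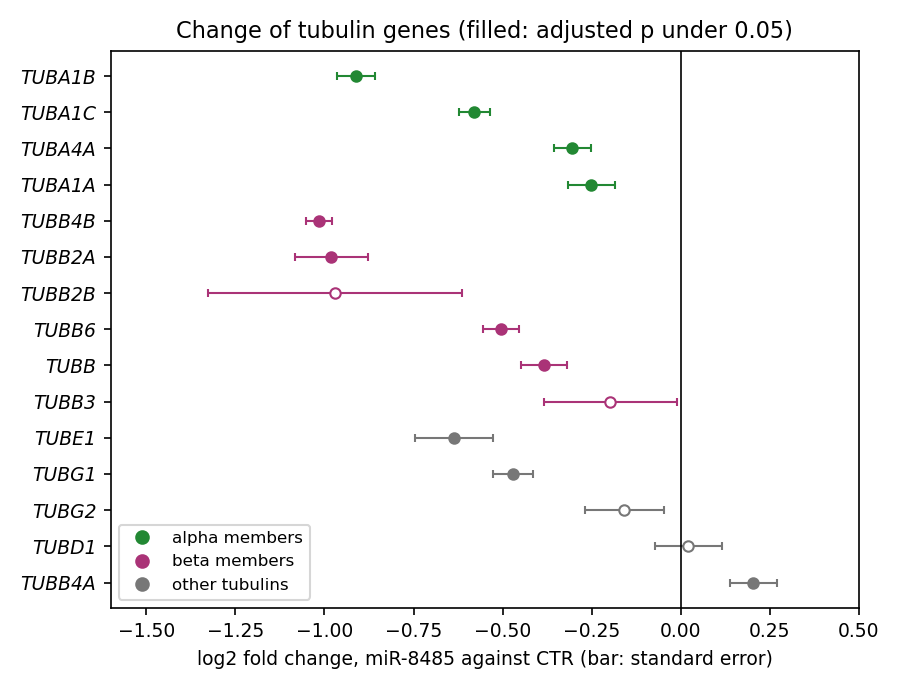
Log2 fold change of miR-8485 against CTR, with its standard error as a bar, for the 10 tubulin genes and the 5 tested tubulins outside the set, with filled points for an adjusted p under 0.05. TUBB4B, TUBB2A and TUBA1B lie between -1.01 and -0.91, TUBB3 and TUBB2B are open, and TUBB4A alone is filled on the right.

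Promoter sequence is shown for the most changed gene of each class and for TUBB, which stands beside TUBB4B in abundance and changed less. The windows are 300 bases around the transcript start from RefSeq, build GRCh38.p14, written 5′ to 3′ on the gene's strand. Capitals mark matches on either strand to 4 motifs. The first is the CCAAT box and the next is the GC box, spelled GGGCGG. The others are the TATA motif, spelled TATAAA, and a cell cycle homology motif, spelled TTTGAA.
TUBB4B, chr9:137241037-137241336, plus strand: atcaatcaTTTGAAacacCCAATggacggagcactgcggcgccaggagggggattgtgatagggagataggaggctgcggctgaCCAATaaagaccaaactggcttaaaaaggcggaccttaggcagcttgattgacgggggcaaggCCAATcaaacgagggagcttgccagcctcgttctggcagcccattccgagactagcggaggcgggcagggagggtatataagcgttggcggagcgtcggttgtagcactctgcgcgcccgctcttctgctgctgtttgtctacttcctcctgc
TUBB, chr6:30720102-30720401, plus strand: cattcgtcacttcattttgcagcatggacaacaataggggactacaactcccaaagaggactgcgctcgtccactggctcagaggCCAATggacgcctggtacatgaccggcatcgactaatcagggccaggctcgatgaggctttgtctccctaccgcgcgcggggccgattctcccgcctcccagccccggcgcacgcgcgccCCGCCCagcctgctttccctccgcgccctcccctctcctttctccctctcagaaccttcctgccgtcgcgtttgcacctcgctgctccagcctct
TUBA1B, chr12:49131346-49131645, minus strand: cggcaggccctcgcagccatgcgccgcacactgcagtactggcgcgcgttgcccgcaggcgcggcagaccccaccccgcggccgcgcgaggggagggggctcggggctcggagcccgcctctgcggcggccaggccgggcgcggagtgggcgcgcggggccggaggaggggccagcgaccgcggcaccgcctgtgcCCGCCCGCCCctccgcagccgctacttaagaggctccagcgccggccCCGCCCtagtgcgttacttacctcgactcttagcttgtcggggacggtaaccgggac
TUBB4B held 3 CCAAT matches, 1 TTTGAA match and no GGGCGG match. TUBB held 1 CCAAT and 1 GGGCGG match, and TUBA1B held 3 GGGCGG matches, of which a pair overlaps, and no CCAAT match. Over the 10 members, CCAAT occurred in 7, GGGCGG in 8, TATAAA in 1 and TTTGAA in 2 promoters. Over all 35116 promoters the shares were 34.6%, 45.0%, 11.5% and 15.2% in the same order. These are matches of letters only, and no binding was measured.

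TUBB4A, a beta tubulin gene outside the set, had means of 11.7 FPKM in CTR and 13.5 FPKM in miR-8485. It has no place in the order and the sums below, which hold the members only. The order of the members by FPKM was taken within each group. In CTR it ran TUBB4B, TUBB, TUBA1B, TUBA1C, TUBA1A, TUBB6, TUBB2A, TUBA4A, TUBB3 and TUBB2B, and of the neighbours only TUBA1A and TUBB6 had overlapping libraries. In miR-8485 TUBB stood above TUBB4B and TUBA4A above TUBB2A, with the rest of the order as in CTR and no overlap between neighbours. The deposited FPKM divides by a gene length that covers the exons of all transcripts, such as 3574 bases for TUBA1B against 1627 bases in its canonical transcript. Per canonical transcript length, chosen as an alternative after seeing the data, TUBB4B and TUBB still changed places, from 506 and 413 in CTR to 250.5 and 315 in miR-8485, while TUBA4A was above TUBB2A in both groups. On this length TUBB6 was above TUBA1A in CTR (86.6 against 82.7) and below it in miR-8485 (61.0 against 69.7).

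Summed over the 4 alpha members, the FPKM was 265, 279.7 and 263 in CTR and 169, 170.3 and 173 in miR-8485. The 6 beta members summed to 728, 757 and 759.6 FPKM in CTR and 464, 463 and 460.3 FPKM in miR-8485. Both sums were lower in every miR-8485 library than in any CTR library, at 63.5% of CTR for alpha (269 ± 9.10 to 171 ± 2.32 FPKM) and 61.8% for beta (748 ± 17.3 to 462 ± 2.02 FPKM). The beta sum per alpha sum was 2.78 ± 0.0961 in CTR and 2.71 ± 0.0484 in miR-8485, and the libraries of the groups overlapped. Per canonical transcript length the same ratio was 1.91 ± 0.0656 and 1.89 ± 0.0354, so its height depends on the length used. No test was run on these sums, which add chosen genes.

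**Figure D3:**
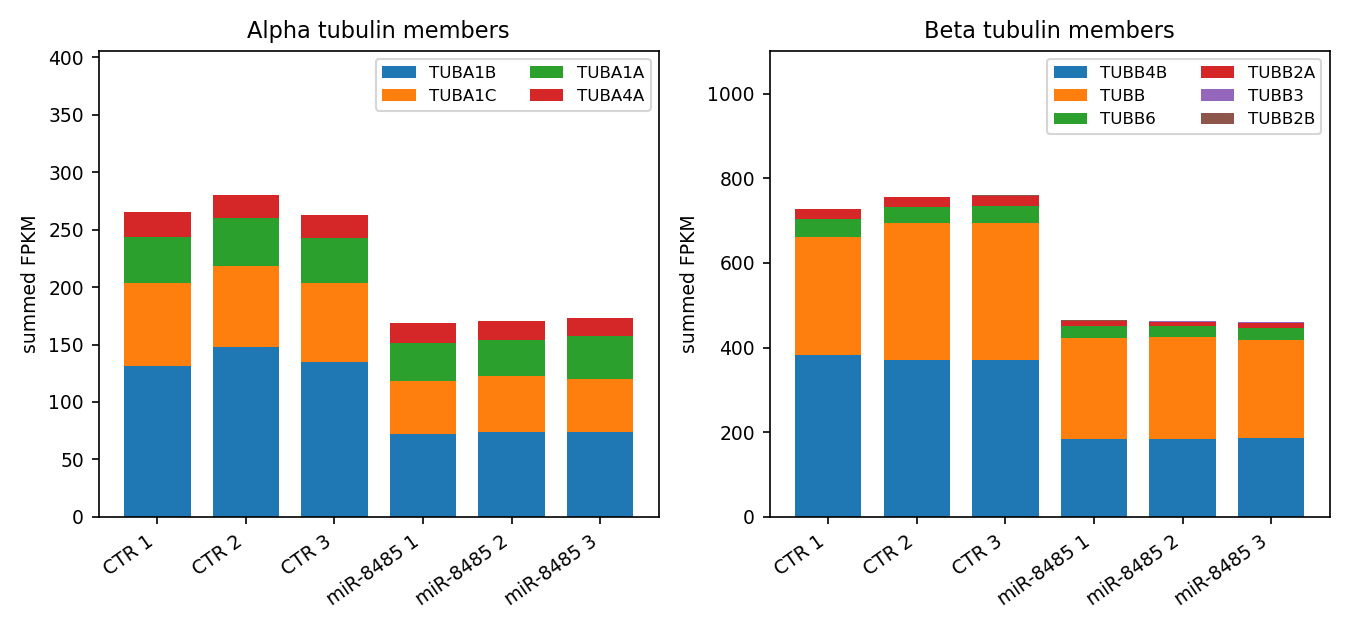
Summed FPKM of the 4 alpha members (left) and of the 6 beta members (right) in each library, stacked by gene from a baseline of 0. The alpha bars are 263 to 279.7 FPKM in CTR and 169 to 173 FPKM in miR-8485, the beta bars are 728 to 759.6 FPKM and 460.3 to 464 FPKM, and in miR-8485 the TUBB4B segment is smaller than the TUBB segment.

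The share of each gene in its class sum compares the isotypes within a library. A share does not depend on how a library is scaled. TUBB4B made up 52.6%, 49.1% and 48.7% of the beta sum in CTR and 39.9%, 40.0% and 40.4% in miR-8485, a difference of -10.0 percentage points. TUBB made up 38.3%, 42.6% and 42.9% in CTR and 50.9%, 52.0% and 50.3% in miR-8485, a difference of 9.80 points. Without CTR replicate 1, which stood apart, these differences were -8.77 and 8.32 points. Among the minor beta members, TUBB6 went from 5.29% to 6.02%, TUBB3 from 0.172% to 0.240% and TUBB2A from 3.03% to 2.49%, each without overlap, while the TUBB2B shares overlapped (exact permutation p = 0.3). In the alpha sum, TUBA1B went from 51.3% to 42.9%, a difference of -8.38 points. The TUBA1A share went from 15.0% to 19.9% and that of TUBA4A from 7.60% to 9.68%, with all libraries separate. The TUBA1C shares of 26.1% and 27.5% overlapped (exact permutation p = 0.2). For the 8 shares without overlap the two-sided exact permutation p was 0.1, the smallest possible, and 0.125 after Benjamini-Hochberg adjustment over the 10 shares, so that none could pass 0.05 in this design.

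Of the 12 log2 ratios between called members of the same class, 6 alpha and 6 beta, 9 were separate between the groups. Besides TUBB2A to TUBB4B, the TUBA1A to TUBA4A ratio (difference 0.055, exact permutation p = 0.8) and the TUBB to TUBB6 ratio (difference 0.12, exact permutation p = 0.6) overlapped. The TUBB4B to TUBB6 ratio was separate, with a difference of -0.51. With 3 libraries a group, an overlap does not show that these genes changed alike.

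The members differ in sequence between the classes and hardly within some of them. Coding sequence identity was 84.4% to 97.2% among the alpha members, 81.0% to 98.1% among the beta members and 55.1% to 58.1% between the classes. TUBA1A and TUBA1B, at 97.2% identity, had log2 fold changes of -0.25 and -0.91, and their log2 ratio differed by 0.66 between the groups without overlap (exact permutation p = 0.1).

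**Figure D4:**
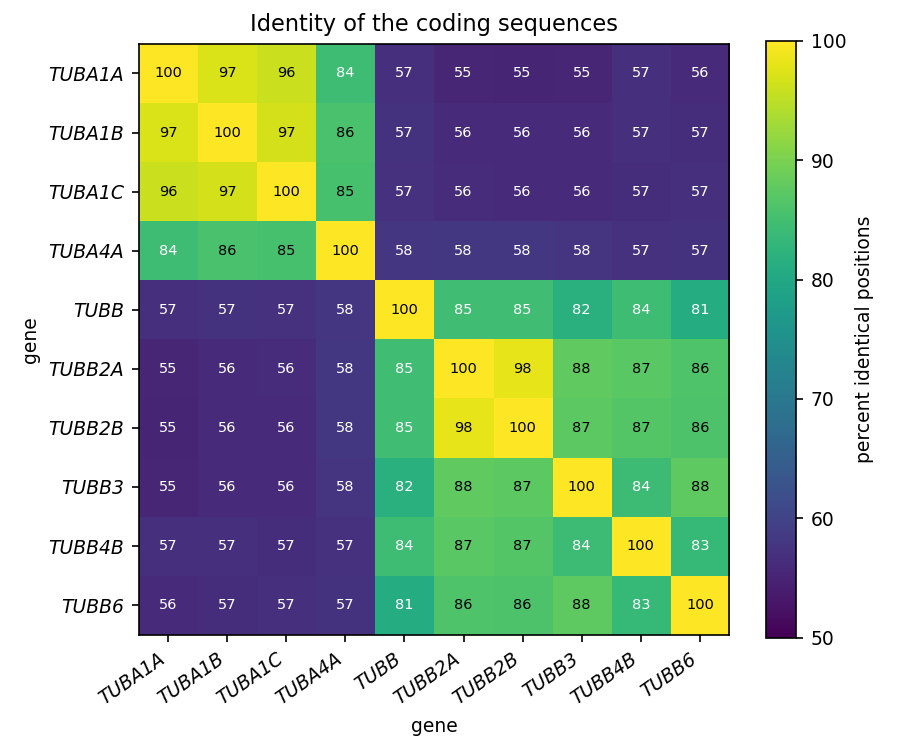
Percent identity of the canonical coding sequences of the 10 tubulin genes, printed in each cell. The 4 alpha genes and the 6 beta genes form separate blocks, with 98.1% for TUBB2A and TUBB2B and at most 58.1% between the blocks.

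Tubulin pseudogenes carried little of the signal. Of 38 rows named as tubulin pseudogenes, all of alpha or beta tubulin except TUBG1P of gamma tubulin, 15 were above 0, and their sum was 5.33 to 8.19 FPKM per library, at most 0.976% of the sum of the members. Of these, 3 passed the filter, and limma called none of them. TUBBP5 had 2.36 FPKM in CTR and 2.08 FPKM in miR-8485, TUBB8P1 had 2.33 and 1.42 FPKM, and TUBBP1 had 1.66 and 1.43 FPKM.

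Of 12 other tubulin genes chosen for comparison and found in the table, 5 passed the filter. TUBG1, the gamma tubulin gene whose product nucleates microtubules at the centrosome, fell from 47.9 ± 1.91 to 34.6 ± 2.04 FPKM (log2 fold change -0.47, limma adjusted p = 3.2e-04). TUBE1, the epsilon tubulin gene of centrioles, fell from 2.45 to 1.54 FPKM (-0.64, limma adjusted p = 0.0018). TUBG2 and TUBD1 were not called, with log2 fold changes of -0.16 and 0.021. TUBB4A, the beta tubulin gene best known from brain, was the exception in direction, with 10.9, 11.8 and 12.5 FPKM in CTR and 13.1, 13.4 and 14.1 FPKM in miR-8485 (log2 fold change 0.20, SE 0.06, limma adjusted p = 0.028). That call did not hold in 6 of 16 alternatives. The adjusted p was 0.298 after rescaling to TPM, 0.0646 with no filter, and 0.0611, 0.0608, 0.0600 and 0.0943 without CTR replicate 1, CTR replicate 2, miR-8485 replicate 2 and miR-8485 replicate 3, respectively. The other 7 genes had group means of at most 0.351 FPKM, and TUBA3C was listed at 0.

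The making of a tubulin dimer passes through chaperones in sequence. Prefoldin hands the new chain to the CCT chaperonin, which folds it, and the tubulin cofactors then join alpha to beta. In prefoldin, 1 of 6 tested genes was higher and 2 were lower, with PFDN5 at 37.8 and 53.4 FPKM in CTR and miR-8485 (log2 fold change 0.50) and PFDN1 at 37.0 and 28.5 FPKM (-0.38). The call of PFDN4 (-0.24) did not hold in 6 of 16 alternatives. In CCT, 4 of 8 tested subunits were lower and 0 higher, with a median of -0.11, where 30.5% of all tested genes were lower and 29.1% higher. TCP1 fell from 118 to 90.5 FPKM (-0.38) and CCT6A from 117 to 95.8 FPKM (-0.29), and CCT8 (-0.24) and CCT2 (-0.19) were also called.
Among the cofactors, 3 of 6 tested genes were called higher and 0 lower, beside a background of 29.1% higher and 30.5% lower. The count of higher cofactors was 1 with no filter, after rescaling to TPM, without a variance trend, and without CTR replicate 2, miR-8485 replicate 1 or miR-8485 replicate 3. ARL2, a small GTPase that works with the cofactor complex, rose from 11.9 ± 0.802 to 21.7 ± 0.842 FPKM (log2 fold change 0.86, limma adjusted p = 2.8e-05). TBCC and TBCD were called at 0.27 and 0.15, and these calls held in 9 and 8 of 16 alternatives, respectively, with the highest adjusted p at 0.224 and 0.662. TTC5, which recognizes the start of nascent tubulin in autoregulation, had 2.65, 2.32 and 2.47 FPKM in CTR and 2.43, 2.55 and 2.62 FPKM in miR-8485 and was not called (log2 fold change 0.028, limma adjusted p = 0.800). Of the subunits of the CCR4-NOT deadenylase that act in this decay, CNOT10 fell from 10.5 to 8.87 FPKM (-0.24, limma adjusted p = 0.0104) and CNOT11 was not called (0.068). SCAPER, the adaptor between them, was at 0.542 and 0.543 FPKM, under the filter.

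In the gamma-tubulin ring complex and its anchors, 1 of 12 tested genes was higher and 4 were lower, against 29.1% and 30.5% of all tested genes. TUBGCP3, a core ring subunit, fell from 6.65 to 3.59 FPKM (log2 fold change -0.87), CDK5RAP2, which tethers rings to the centrosome, from 5.12 to 3.27 FPKM (-0.64), and NEDD1 from 8.84 to 6.17 FPKM (-0.51). TUBG1, above, was also among the 4. The higher gene, MZT2B (0.29), was not called after rescaling to TPM, with no filter, without CTR replicate 2 or without miR-8485 replicate 1. Of the augmin complex, which branches microtubules within the spindle, HAUS6 alone of 7 tested genes was called, from 8.63 to 5.57 FPKM (-0.62).

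Of 16 tested enzymes that modify tubulin, 5 were higher and 5 lower, with a median of -0.0057, against 29.1% and 30.5% of all tested genes. After rescaling to TPM the split was 4 higher and 8 lower. The call of VASH1, a lower gene (-0.44), held in 7 of 15 alternatives. TTLL7, a polyglutamylase of beta tubulin, fell from 1.64 to 0.505 FPKM (log2 fold change -1.54) and TTLL4 from 4.61 to 2.92 FPKM (-0.64), whereas TPGS1, a subunit of another polyglutamylase, rose from 6.31 to 10.9 FPKM (0.78). SVBP, the partner of the vasohibins that remove the final tyrosine of alpha tubulin, fell from 4.53 to 2.96 FPKM (-0.60). Of the severing enzymes, KATNAL1, a katanin catalytic subunit, had 3.07, 2.78 and 2.79 FPKM in CTR and 0.653, 0.628 and 0.797 FPKM in miR-8485, and its log2 fold change of -1.92 (SE 0.14, limma adjusted p = 3.2e-05) was larger in size than that of any tubulin member.

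Of 23 tested genes for proteins that bind microtubules, 12 were lower and 3 higher, with a median of -0.20. TPX2, a spindle assembly factor, fell from 68.9 to 37.0 FPKM (log2 fold change -0.90). MAPRE3, a plus-end tracking protein, fell from 8.30 to 4.35 FPKM (-0.93), CLIP2 from 9.51 to 5.08 FPKM (-0.89) and MAP2, a dendritic protein at a low level here, from 2.03 to 0.757 FPKM (-1.29). The 3 higher genes were STMN1, MAP1B and CLIP1, named after their values were seen. None of them was called after rescaling to TPM, with no filter, or without miR-8485 replicate 1, 2 or 3. Their calls held in 8 of 16, 6 of 15 and 8 of 15 alternatives. The count of lower genes in this list moved as well, to 15 after rescaling to TPM and 10 with no filter. It was 9 without CTR replicate 2, miR-8485 replicate 1 or miR-8485 replicate 2. Over all related lists together, 15 of 89 tested genes were higher and 32 lower, against backgrounds of 29.1% and 30.5%.

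**Figure D5:**
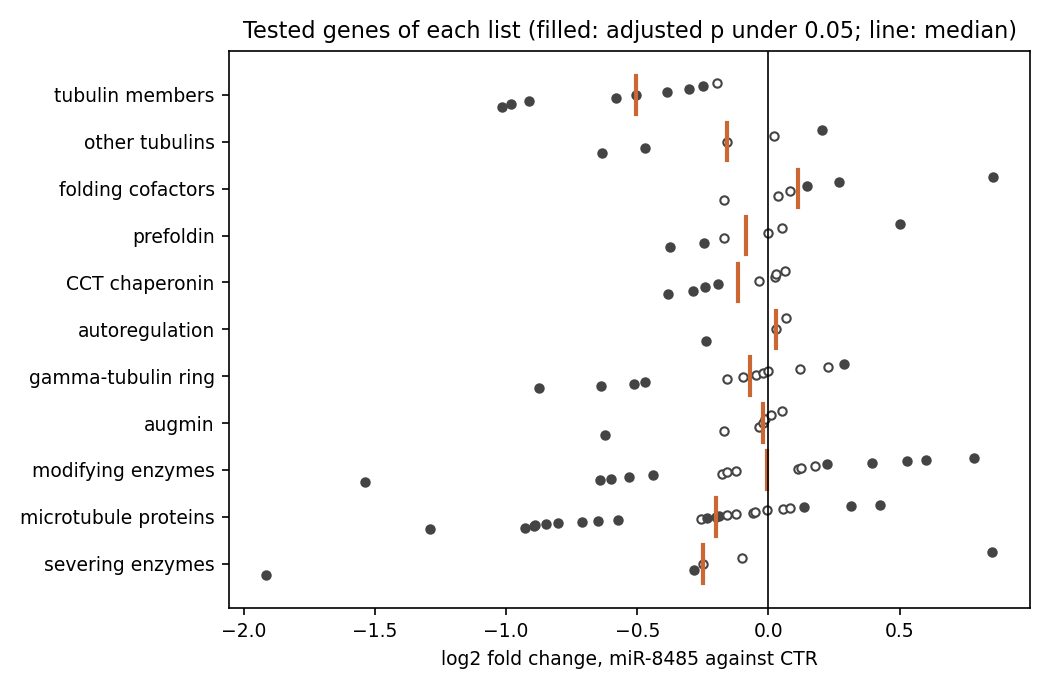
Log2 fold change of each tested gene in the tubulin set and the 10 related lists, with filled points for an adjusted p under 0.05 and a vertical line at each list's median. The tubulin genes have a median of -0.51 and all lie left of 0, while the medians of the related lists lie between -0.25 and 0.11.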

How the data were processed

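RNA-seq libraries of HCT116 cells were made by the authors from total RNA, and 6 were analysed here, 3 for each group. Reads were mapped to hg38 with HISAT2 2.0.5 and counted per gene with featureCounts 1.5.0-p3, per the submitters' notes and the study's methods. The deposited values are FPKM computed by the authors, and the table's gene coordinates, lengths and biotypes were used as given. Each FPKM was multiplied by gene length and divided by the smallest such value above 0 in its library, which was taken as 1 fragment. This gave whole fragments (within 0.05) for 100% of values under 1000 fragments, and their sums set the depths. Differences were tested with limma 3.58.1 in R 4.3.3 on log2(FPKM + 0.1), two-sided, with a variance trend and Benjamini-Hochberg adjustment over the 12349 genes with a mean of at least 1 FPKM. Fold changes on this scale understate those of low genes. For TUBB2B, a fit of the 31768 genes with any value above 0 was used. A call is an adjusted p under 0.05. The p-values measure the spread between 3 biological replicates of 1 cell line. Shares and ratios were tested by exact permutation over the libraries. The limma fit was also run on simulated data with the same replicate spread for every gene and few changed genes. These libraries differ from that setting, so the run does not bear on the calls given here.

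The 10 members and all related lists were chosen with earlier results of these data known. All members are named. From each related list up to 4 genes are named, those with the largest absolute log2 fold change among called genes whose groups do not overlap, any tested gene in the autoregulation and other-tubulin lists, and the pseudogenes of highest mean. The genes TBCC, TBCD, PFDN4 and VASH1 and the 3 higher microtubule-binding genes were named to complete a count. Coding sequences, 3′ UTRs and shared words came from GENCODE v44 canonical transcripts, and promoters from RefSeq (GRCh38.p14). Protein sequences were not used here. TUBB8B was not found under that symbol. Intervals for depth were not computed, since replicate spread was available for each value. The alternatives were another pseudocount, filter, scaling or variance model, voom on recovered fragments, a replicate block, leaving out each library, and the canonical transcript length.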

Additional observations from a re-analysis of the deposited data

How the results depend on the processing

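The 8 lower calls and 0 higher calls among the tubulin genes were the same in number under every alternative run, and the direction of each of the 8 held. On the TPM scale the median over all genes shifted from -0.0041 to -0.12 (log2), and this scale gave log2 ratios of -0.77 for the alpha sum and -0.81 for the beta sum. It also turned the calls over all tested genes from 3593 higher and 3769 lower (48.8% higher) into 2613 higher and 4725 lower (35.6% higher). This scale sets the FPKM sum equal in every library. The deposited sums were 322999 to 339641 in CTR and 351052 to 369643 in miR-8485, and the source of this difference was not tested. Related genes called higher numbered 7 under TPM, 9 with no filter and 8 to 12 when a library was left out, against 15. The number was 9 without CTR replicate 2, 8 without miR-8485 replicate 1, 9 without miR-8485 replicate 2 and 9 without miR-8485 replicate 3. Related genes called lower numbered 42 under TPM, 27 with no filter, 22 with a filter at a mean FPKM of 5 and 26 to 31 when a library was left out, against 32. With a filter at a mean FPKM of 5, 2303 genes were higher and 2417 lower, since fewer genes were tested. Per canonical transcript length the share differences were 0.124 points for TUBB3 and 1.11 points for TUBB6. With a replicate block, TUBA1A had an adjusted p of 0.0220 and TUBB of 0.0026, and no call among the tubulin members changed. Same-numbered libraries deviated together with correlations of 0.067, 0.033 and -0.064, so the numbers were not taken to pair the samples. Depth limits TUBB2B and TUBB3, with 10 to 43 and 84 to 124 fragments per library.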
